A study of Mus musculus with 18 samples.

Results

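The genes described here encode the enzymes of phase II conjugation: the UDP-glucuronosyltransferases (UGT), the glutathione S-transferases (GST) and the cytosolic sulfotransferases (SULT). They were taken by gene symbol, as every symbol of the pattern Ugt1 to Ugt3, Gsta, Gstm, Gstp, Gstt, Gsto, Gstk, Gstz or Sult followed by its subfamily letter and number. The set was chosen with earlier results of these data known. The pattern took 64 of 50600 genes in the table of livers collected 1 day after operation, and 55 of 17127 genes in the table of livers collected at 12 hours. Of these, 46 and 40 genes had enough counts to be tested, and the 40 were all among the 46. Liver RNA was sequenced from 18 C57BL/6 mice, in 6 groups of 3. HMRKO mice carry loxP-flanked mineralocorticoid receptor (MR) alleles and Cre recombinase under the albumin promoter, which is active in hepatocytes. Littermate control (LC) mice carry the same loxP-flanked alleles without Cre, and the sample labels call them wild type. Both genotypes were studied 1 day after myocardial infarction (MI), in which the left anterior descending coronary artery was tied off for good, or after a sham operation in which it was not. This gave HMRKO + MI, HMRKO + sham, LC + MI and LC + sham groups. The 12 hour experiment compared MI with sham operation in wild type mice. The methods describe male mice, and the labels give an age of 12 weeks. Titles mark sham livers as such, whereas those of the day 1 MI livers carry the genotype alone. Their operation, and the time of collection of all livers, came from the design text of the series. No source used here gives the time of day of collection, or says whether the 3 livers of a group came from separate litters or operating days, so the p-values measure the spread between these livers.

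Conjugation makes small molecules more soluble in water, so that they can leave the body in bile or urine. UGT enzymes of the endoplasmic reticulum transfer glucuronic acid from UDP-glucuronic acid to bilirubin, steroids, bile acids and drugs. GST enzymes join reactive electrophiles to glutathione, and cytosolic SULT enzymes transfer a sulfonate group from the donor PAPS to hormones, bile acids and phenols. The liver is a main site of all of these reactions, and hepatocytes express many of the genes. Several of the genes lie in clusters of close relatives, and the UGT1A transcripts are made from 1 locus by joining different first exons to shared last exons.

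Libraries at 1 day held 19098704 to 28945526 counts. At 12 hours the MI libraries held 16745688 to 19190438 counts and the sham libraries 1361564 to 2255837, so depth differed with the operation. Levels are given as CPM, the counts of a gene per fixed number of library counts, after TMM scaling, which sets libraries to a common scale under the assumption that most genes do not change. Such CPM values compare a gene between livers. To compare genes with each other, TPM, which divide counts by transcript length before scaling, were used at 12 hours. The hepatocyte markers Alb, Apoa1 and 6 others were detected in all groups. Nr3c2, the gene of MR, averaged 0.967 ± 0.111 CPM in HMRKO + MI livers, against 3.08 ± 0.619 CPM in HMRKO + sham livers (SD, n = 3 each). In LC livers it averaged 2.53 ± 0.896 CPM with MI, against 5.67 ± 0.998 CPM with sham operation (SD, n = 3 each). HMRKO and LC livers did not overlap after either operation. In tissue, a lower transcript level can come from fewer cells of a type or from less RNA per cell, and these cannot be told apart here.

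Measured per transcript length at 12 hours, Gstp1, a GST of the pi class, was the most abundant of the genes. It was at 2670, 2270 and 2421 TPM in MI livers, against 5297, 4117 and 3534 TPM in sham livers. The most abundant UGT was Ugt2b5, at 197, 127 and 246 TPM in MI livers, against 321, 303 and 271 TPM in sham livers. The most abundant SULT was Sult1a1, a phenol sulfotransferase, at 120.0, 198 and 232 TPM in MI livers, against 123, 211 and 107 TPM in sham livers. GST transcripts thus made up most of the total for the 3 families, with a summed 5552 ± 797 TPM in MI livers and 6975 ± 964 TPM in sham livers. The UGT sum was 834 ± 185 TPM in MI livers and 826 ± 76.6 TPM in sham livers, and the SULT sum was 351 ± 42.9 TPM in MI livers and 513 ± 99.2 TPM in sham livers (SD, n = 3 each). The direction between MI and sham livers turned with the scale for the GST sum. The UGT sum overlapped between groups in TPM (689 to 1042 in MI livers, 760 to 910 in sham livers), but by CPM it was higher in every MI liver. The SULT sum was lower on average in MI livers on both scales, with overlap by CPM. By TMM-normalised CPM the GST sum was 5035 ± 709 in MI livers and 3680 ± 493 in sham livers, and the UGT sum was 1722 ± 348 CPM in MI livers and 1065 ± 91.9 CPM in sham livers (SD, n = 3 each). The SULT sum was 479 ± 29.9 CPM in MI livers and 508 ± 62.8 CPM in sham livers (SD, n = 3 each). On the TMM scale Gstp1 had a log2 fold change of −0.19 (adjusted p = 0.518 from edgeR) and Ugt2b5 of −0.04 (adjusted p = 0.902 from edgeR), so neither passed. At 1 day, 18 of the 64 genes had too few counts to be tested (at most 38 counts over the 12 livers). These were Gsto2, Gstt4, Sult1c1, Sult2a1 to Sult2a6, Sult2b1, Sult3a1, Sult3a2, Sult4a1, Sult6b1, Sult6b2, Ugt1a2, Ugt2a1 and Ugt2a2.

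Conjugation transcripts took a smaller share of all counts after MI at 1 day in both genotypes. The share was 0.344% to 0.434% in HMRKO + MI livers and 0.616% to 0.817% in HMRKO + sham livers. In LC + MI livers it was 0.487% to 0.505%, against 0.755% to 0.834% in LC + sham livers. The mitochondrial share of counts also moved with the operation, in opposite directions in the genotypes, at 8.68% to 9.1% in HMRKO + MI livers and 10.1% to 15.6% in HMRKO + sham livers. It was 10.9% to 18.9% in LC + MI livers, against 7.53% to 9.65% in LC + sham livers. Among counts of non-mitochondrial genes alone, conjugation transcripts still took 0.377% to 0.477% in HMRKO + MI livers, against 0.730% to 0.909% in HMRKO + sham livers, and 0.556% to 0.624% in LC + MI livers, against 0.835% to 0.901% in LC + sham livers. The sums of the 3 families are shown by liver in the plot of family levels. Summed GST transcripts were at 2781, 2102 and 2557 CPM in HMRKO + MI livers, against 4447, 3708 and 4371 CPM in HMRKO + sham livers. They were at 4166, 3026 and 2985 CPM in LC + MI livers, against 4734, 4693 and 5003 CPM in LC + sham livers. Each liver after MI was below each sham-operated liver of its genotype for this sum.

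**Figure D1:**
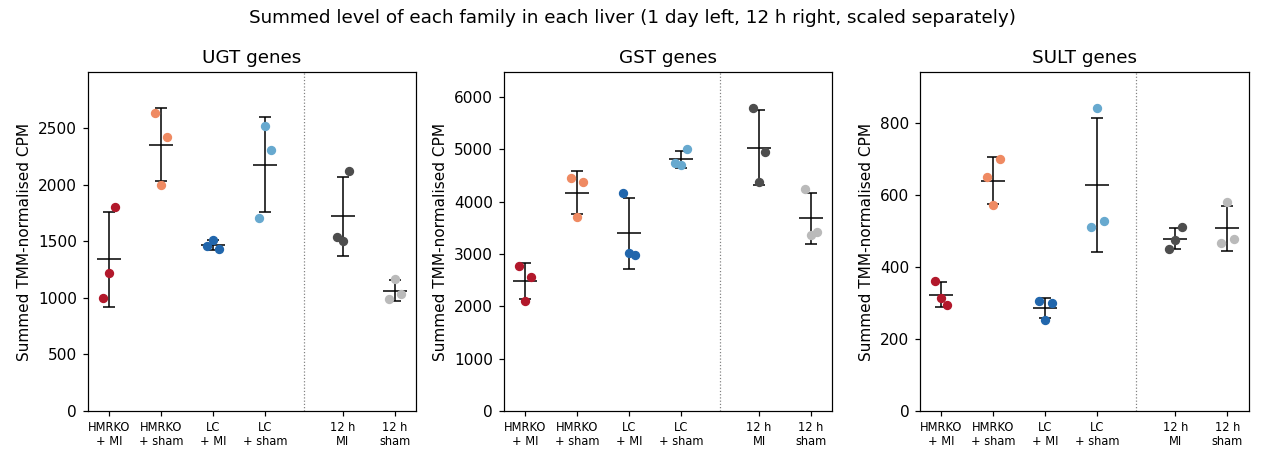
Summed TMM-normalised CPM (vertical axis) of the UGT, GST and SULT genes in each liver (points, 3 a group), with the mean and SD as bars. Groups at 1 day stand left of the dotted line and groups at 12 hours right of it, scaled separately, and at 1 day every MI liver was below every sham liver of its genotype in all 3 panels (closest for UGT in HMRKO livers, 1806 CPM after MI against 2001 CPM after sham operation).

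In LC livers after MI, 9 of the 46 genes fell and 1 rose. Of all 14266 genes tested, 2.33% fell and 2.68% rose (edgeR, adjusted p under 0.05). The median log2 fold change was −0.38 over the 46 genes and 0.01 over all genes, and 36 of the 46 values were negative. In HMRKO livers after MI, 22 genes fell and 3 rose, where 21.7% of all genes were lower and 22% higher, with a median log2 fold change of −0.64 over the 46 genes and 0.01 over all. Both comparisons took in 7 of the same falling genes: Gsta3, Gstm3, Sult1c2, Sult2a8, Ugt2a3, Ugt2b1 and Ugt2b38. These are 7 of the 9 that fell in LC livers and 7 of the 22 that fell in HMRKO livers. Between genotypes after MI, 9 genes were lower and 3 higher in HMRKO livers, where 16.2% of all genes were lower and 14.6% higher. The change after MI differed between genotypes (the interaction of genotype and operation) for 7 genes, 5 with a negative and 2 with a positive term, where 8.5% of all genes had a negative and 6.74% a positive term. Between HMRKO + sham and LC + sham livers 0 of the 46 genes passed edgeR, where 0.021% of all genes were higher and 0.014% lower. At an unadjusted p under 0.05 from edgeR, 3 were higher and 2 lower between these sham groups, and DESeq2 passed 1. MI and sham values did not overlap for 24.7% of all genes tested in LC livers and 55.8% in HMRKO livers. Between genotypes, 48.8% of all genes did not overlap after MI and 11.1% after sham operation.

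**Figure D2:**
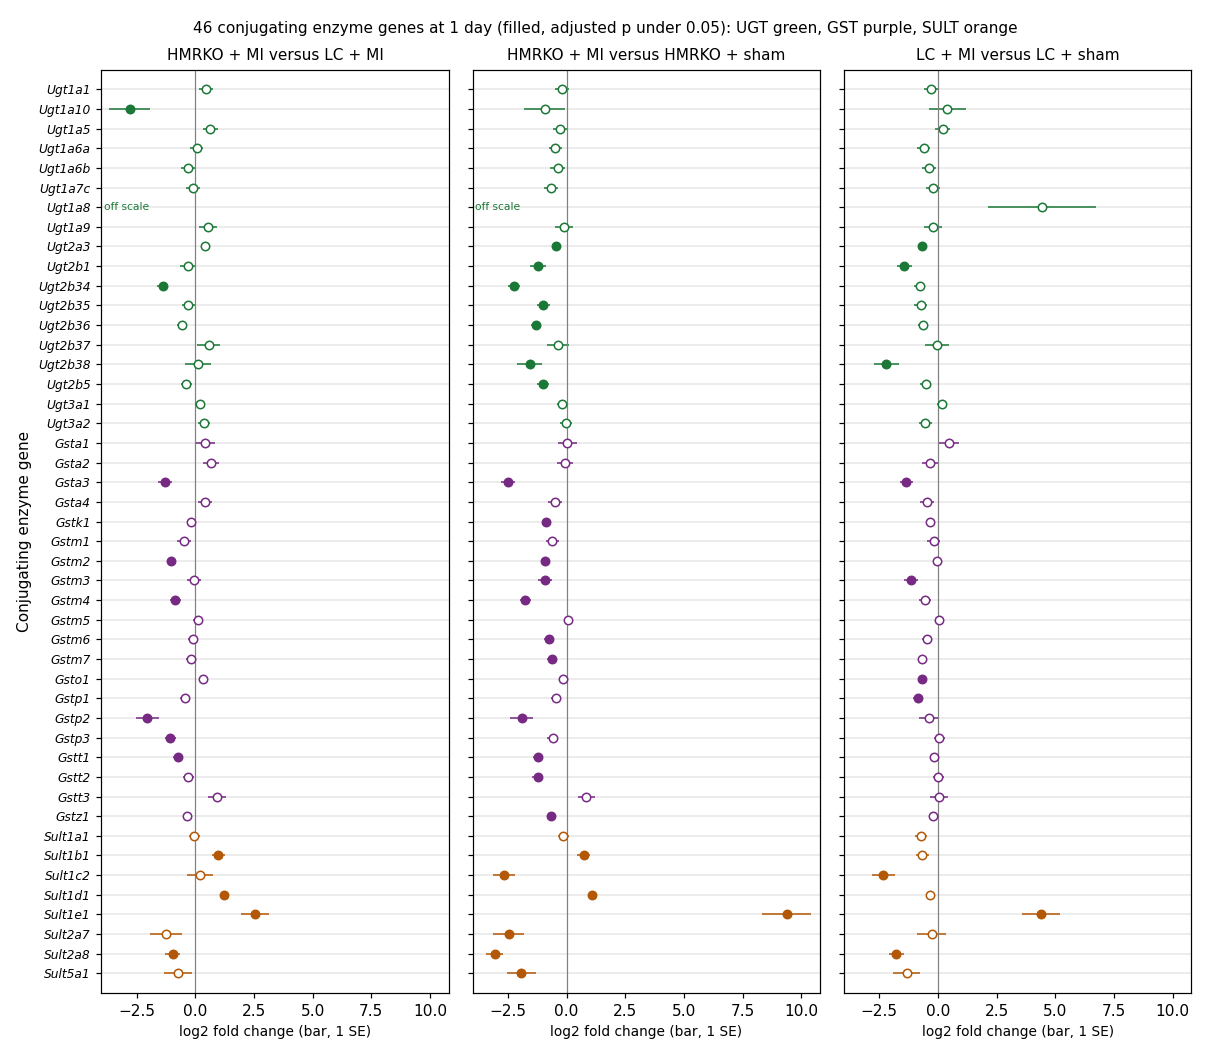
Log2 fold changes (horizontal axis, with bars of 1 SE) of the 46 genes tested at 1 day, for HMRKO + MI versus LC + MI (left), HMRKO + MI versus HMRKO + sham (middle) and LC + MI versus LC + sham (right), with filled points for an adjusted p under 0.05 from edgeR. Most filled points lie left of 0, while the 3 filled points right of 0 in the left and middle panels are Sult1b1, Sult1d1 and Sult1e1; Ugt1a8, at 0 counts in all HMRKO + MI livers, is off scale in 2 panels.

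The counts for LC livers depended on single libraries. In a fit that left out LC + MI replicate 2 or replicate 3, only the rise of Sult1e1 passed and none of the falls did. Leaving out LC + sham replicate 2 kept 2 calls and LC + sham replicate 3 kept 4, whereas 12 genes passed when LC + MI replicate 1 was left out. When the 6 LC livers were fitted by themselves, 5 genes passed, all lower. For the interaction, 4 genes passed when LC + MI replicate 1, HMRKO + sham replicate 3 or HMRKO + MI replicate 1 was left out, and 8 or 9 when LC + MI replicate 2 or 3, or HMRKO + MI replicate 3, was.

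Sulfotransferase transcripts moved in both directions. The 3 SULT1 genes that were higher in HMRKO livers after MI, Sult1b1, Sult1d1 and Sult1e1, are neighbours on chromosome 5. Sult1e1, the estrogen sulfotransferase, which inactivates estrogens, was at 46.5, 51.2 and 30.8 CPM in HMRKO + MI livers. Its values were 0, 0.0482 and 0.132 CPM in HMRKO + sham livers, from 4 counts in all. In LC + MI livers it was at 0.801, 9.64 and 11.4 CPM, against 0.0717, 0.296 and 0.672 CPM in LC + sham livers. Every liver after MI was above every sham-operated liver, and every HMRKO + MI liver was above every LC + MI liver. The log2 fold change was 4.40 (SE 0.81) in LC livers after MI (adjusted p = 0.012 from edgeR) and 2.54 (SE 0.60) between genotypes after MI (adjusted p = 0.0084 from edgeR). In HMRKO livers after MI the test also passed (adjusted p = 5.02e-05 from edgeR). Pooled over livers and scaled to library totals, Sult1e1 was 670-fold higher in HMRKO + MI than in HMRKO + sham (95% exact interval for counting error alone, 261 to 2460). The interaction term did not pass (adjusted p = 0.061 from edgeR). When only LC livers were fitted the rise of Sult1e1 did not pass (adjusted p = 0.0573 from edgeR), and LC + MI replicate 1, the lowest of its group, was also the liver with the largest mitochondrial share of counts (18.9%).

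Sult1d1, which in mice sulfates catecholamines, was at 86.1, 89.2 and 81.8 CPM in HMRKO + MI livers, against 42.9, 34.9 and 42.3 CPM in HMRKO + sham livers. In LC livers it was at 26.6, 38.8 and 43.2 CPM after MI, against 39.9, 47.5 and 50.6 CPM after sham operation. The HMRKO + MI livers stood above all 9 other livers. Sult1d1 was higher in HMRKO + MI than in LC + MI livers by 1.24 on the log2 scale (SE 0.17, adjusted p = 0.000911 from edgeR) and than in HMRKO + sham livers by 1.1 (SE 0.17, adjusted p = 0.000419 from edgeR). In LC livers after MI its log2 fold change was −0.35 and did not pass (adjusted p = 0.262 from edgeR). The interaction was 1.44 (SE 0.24, adjusted p = 0.00752 from edgeR), and it passed in each fit that left out 1 liver. Sult1b1, which sulfates thyroid hormones, was at 15.3, 12.8 and 16.1 CPM in HMRKO + MI livers, against 8.58, 8.43 and 9.69 CPM in HMRKO + sham livers. It was at 7.31, 6.99 and 8.13 CPM in LC + MI livers, against 6.06, 17.5 and 11.9 CPM in LC + sham livers. The LC + sham values of Sult1b1 spread over the range of all other groups. Its log2 fold change was 0.97 (SE 0.28) between genotypes after MI (adjusted p = 0.0201 from edgeR) and 0.72 (SE 0.28) in HMRKO livers after MI (adjusted p = 0.0494 from edgeR). The interaction of Sult1b1 was 1.38 (SE 0.39, adjusted p = 0.0341 from edgeR). Of the 12 fits that each left out 1 liver, 10 lost the call of Sult1b1 in HMRKO livers, 9 lost its interaction and 4 lost its difference between genotypes.

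**Figure D3:**
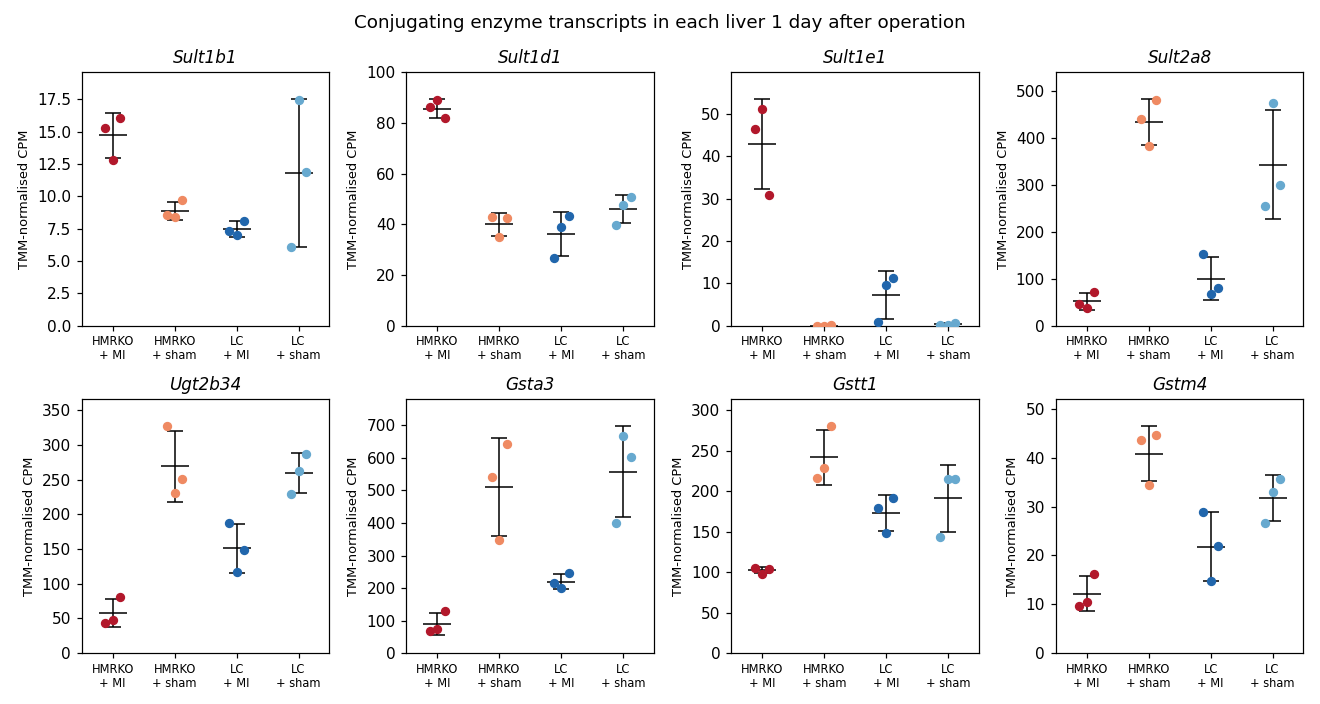
TMM-normalised CPM (vertical axis, from 0) of 8 conjugating enzyme genes in each of the 12 livers at 1 day (points), with the mean and SD of each group as bars. Sult1d1 and Sult1e1 were higher in all 3 HMRKO + MI livers than in the other 9, and Sult2a8, Ugt2b34, Gsta3, Gstt1 and Gstm4 were lowest on average in HMRKO + MI livers.

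The same 3 genes stand at 1 end of a run of 13 of the genes on chromosome 5, next to Ugt2a and Ugt2b genes. As the plot in chromosome order shows, in HMRKO + MI versus HMRKO + sham 7 of the 8 tested UGT2 genes fell while all 3 SULT1 genes rose. The 3 SULT1 promoters are shown because all 3 genes rose in HMRKO livers after MI, which they did not do in LC livers. Each is 300 bases from RefSeq (build GRCm38.p6), running from 250 bases before to 50 bases after the annotated start and read 5′ to 3′ on the gene's strand. Capitals mark the motifs searched on both strands: GCGTG (the core that the aryl hydrocarbon receptor recognises), AGAACA (a steroid receptor half-site), TGACNNNGC (antioxidant response element), TTATGNAA (D-box) and CACGTG (E-box). All 3 lie on the minus strand, Sult1b1 at chr5:87536173-87536472, Sult1d1 at chr5:87568957-87569256 and Sult1e1 at chr5:87591562-87591861.
Sult1b1: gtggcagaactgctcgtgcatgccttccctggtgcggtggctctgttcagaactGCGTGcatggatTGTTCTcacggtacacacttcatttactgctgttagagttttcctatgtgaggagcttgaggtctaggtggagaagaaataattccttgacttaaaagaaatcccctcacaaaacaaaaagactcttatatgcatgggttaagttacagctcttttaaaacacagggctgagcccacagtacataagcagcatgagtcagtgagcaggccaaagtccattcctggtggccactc
Sult1d1: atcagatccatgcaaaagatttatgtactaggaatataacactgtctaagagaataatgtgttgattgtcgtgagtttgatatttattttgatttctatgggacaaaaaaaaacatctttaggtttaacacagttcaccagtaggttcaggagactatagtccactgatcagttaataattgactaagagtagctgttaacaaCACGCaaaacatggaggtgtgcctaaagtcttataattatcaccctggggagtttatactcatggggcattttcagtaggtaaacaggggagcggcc
Sult1e1: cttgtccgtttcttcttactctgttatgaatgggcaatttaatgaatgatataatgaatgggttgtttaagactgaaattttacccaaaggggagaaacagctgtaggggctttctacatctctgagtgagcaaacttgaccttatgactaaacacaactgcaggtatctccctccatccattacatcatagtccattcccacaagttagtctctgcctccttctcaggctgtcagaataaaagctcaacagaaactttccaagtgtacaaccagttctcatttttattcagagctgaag
Sult1b1 held GCGTG 196 bases and AGAACA 184 bases before its start, Sult1d1 held GCGTG 47 bases before its start, and the Sult1e1 window held none of the 5 motifs. A second annotated start of Sult1b1 had none of them either. GCGTG was in 32.4% of all 32851 promoter windows of this length, and AGAACA in 19%.

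**Figure D4:**
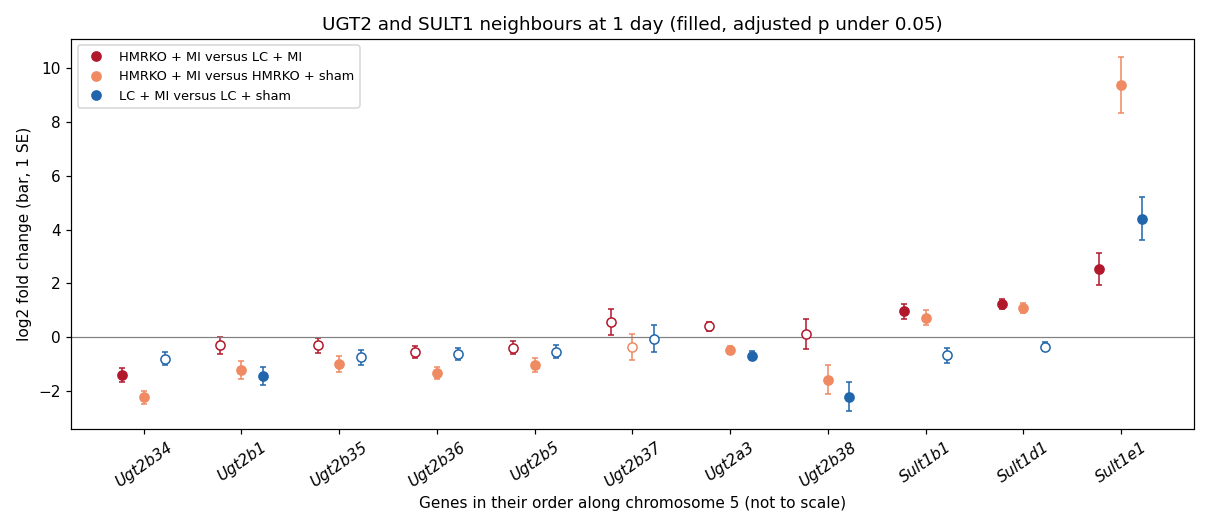
Log2 fold changes (vertical axis, bars of 1 SE) of the 11 tested UGT2 and SULT1 genes in their order along chromosome 5 (horizontal axis, not to scale), in 3 comparisons at 1 day, with filled points for an adjusted p under 0.05 from edgeR. In HMRKO + MI versus HMRKO + sham (orange) the UGT2 points are below 0 and the 3 SULT1 points above it, whereas in LC + MI versus LC + sham (blue) only Sult1e1 is above 0.

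Most other tested sulfotransferases fell after MI in HMRKO livers. Sult2a8, a mouse sulfotransferase of bile acids, was at 45.4, 37.8 and 72.7 CPM in HMRKO + MI livers, against 439, 384 and 480.2 CPM in HMRKO + sham livers. It was at 153, 68.3 and 81.4 CPM in LC + MI livers, against 255, 475 and 299 CPM in LC + sham livers. In neither genotype did MI and sham livers overlap. Sult2a8 fell by 3.06 on the log2 scale in HMRKO livers (SE 0.35, adjusted p = 5.96e-05 from edgeR) and fell by 1.77 in LC livers (SE 0.33, adjusted p = 0.0134 from edgeR). Its log2 fold change between genotypes after MI was −0.95 (SE 0.33, adjusted p = 0.0419 from edgeR), with overlapping values, and 7 of 12 fits that left out 1 liver lost this call. Sult1c2, of the SULT1C subfamily, was at 0.279, 0.292 and 0.609 CPM in HMRKO + MI livers, against 2.93, 1.59 and 3.03 CPM in HMRKO + sham livers. It was at 0.651, 0.121 and 0.277 CPM in LC + MI livers, against 1.61, 1.92 and 1.57 CPM in LC + sham livers. This low transcript fell in both genotypes, by 2.68 on the log2 scale in HMRKO livers (SE 0.47, adjusted p = 0.000862 from edgeR). In LC livers it fell by 2.33 (SE 0.48, adjusted p = 0.0193 from edgeR). Sult2a7, a close relative of Sult2a8, was at 0.0559, 0.876 and 2.59 CPM in HMRKO + MI livers, against 5.82, 6.36 and 7.37 CPM in HMRKO + sham livers (log2 fold change −2.47, SE 0.67, adjusted p = 0.0101 from edgeR). Sult5a1 was at 2.01, 5.88 and 3.45 CPM in HMRKO + MI livers, against 12.9, 13.6 and 17.4 CPM in HMRKO + sham livers (log2 fold change −1.92, SE 0.60, adjusted p = 0.0198 from edgeR). Neither gene overlapped between the HMRKO groups, and neither passed in LC livers. Sult5a1 stood at 35.7 CPM in LC + sham replicate 2 and at 5.88 and 6.65 CPM in the other LC + sham livers. Sult1a1 had log2 fold changes of −0.13 in HMRKO livers and −0.72 in LC livers after MI, and passed in neither.

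Among UGT genes, the UGT2 cluster fell after MI while the UGT1A and UGT3 genes did not pass. In HMRKO livers after MI, 7 of 8 UGT2 genes fell, and the median log2 fold change of the 8 was −1.11. In LC livers 3 of 8 fell, with a median of −0.70. Ugt2b34 was at 43.8, 48.2 and 80.5 CPM in HMRKO + MI livers, against 327, 230.4 and 250.4 CPM in HMRKO + sham livers. It was at 187, 117 and 149 CPM in LC + MI livers, against 229, 263 and 287 CPM in LC + sham livers. The HMRKO + MI livers were below all others. Ugt2b34 fell by 2.23 on the log2 scale in HMRKO livers after MI (SE 0.25, adjusted p = 5.86e-05 from edgeR), and was lower in HMRKO + MI than in LC + MI livers (log2 fold change −1.39, SE 0.25, adjusted p = 0.00233 from edgeR). Its interaction was −1.44 (SE 0.34, adjusted p = 0.0187 from edgeR) and kept its call in all 12 fits that left out 1 liver. In LC livers the log2 fold change of −0.78 did not pass (adjusted p = 0.0812 from edgeR).

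Ugt2b1 was at 49.4, 71.4 and 92.8 CPM in HMRKO + MI livers, against 189.5, 166 and 136 CPM in HMRKO + sham livers. In LC + MI livers it was at 99.2, 95.4 and 68.2 CPM, against 132, 379 and 194 CPM in LC + sham livers. It fell in both genotypes, by 1.20 on the log2 scale in HMRKO livers (SE 0.34, adjusted p = 0.0114 from edgeR) and by a log2 fold change of −1.42 in LC livers (SE 0.34, adjusted p = 0.0318 from edgeR). Ugt2b36 was at 117, 133 and 224 CPM in HMRKO + MI livers, against 416, 359.5 and 404 CPM in HMRKO + sham livers (log2 fold change −1.32, SE 0.22, adjusted p = 0.00054 from edgeR). Ugt2b5, the most abundant UGT per length, was at 163, 248 and 370.3 CPM in HMRKO + MI livers, against 625, 420.1 and 535 CPM in HMRKO + sham livers (log2 fold change −1.02, SE 0.25, adjusted p = 0.00565 from edgeR). Neither gene passed in LC livers, where Ugt2b36 had a log2 fold change of −0.62 and Ugt2b5 of −0.52, with no overlap between groups for either. Ugt2b38 was at 1.40, 3.39 and 4.82 CPM in HMRKO + MI livers, against 18.1, 6.93 and 3.64 CPM in HMRKO + sham livers. In LC + MI livers it was at 3.45, 3.34 and 2.07 CPM, against 8.18, 14.6 and 17.6 CPM in LC + sham livers. It fell in HMRKO livers (log2 fold change −1.57, SE 0.54, adjusted p = 0.0306 from edgeR) with overlapping values, and in LC livers (log2 fold change −2.19, SE 0.54, adjusted p = 0.0356 from edgeR) without overlap. Ugt2b38 shares 28% of its 75-base stretches with other genes, mostly Ugt2b5, so reads may have been divided between these. Ugt2b35, at a log2 fold change of −0.98, and Ugt2a3, at −0.47, completed the 7 genes that fell in HMRKO livers, and Ugt2b37 did not pass.

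Values of single UGT1A genes are uncertain and are given as the files assign them. Since their last exons are common, each shares much of its transcript with others, from 51.2% of 75-base stretches for Ugt1a6a to 74.8% for Ugt1a6b. Ugt1a8 had 53.4 CPM in LC + MI replicate 1, 6.70 and 59.1 CPM in HMRKO + sham replicates 1 and 2, 2.37 CPM in LC + sham replicate 1, and 0 counts in the other 8 livers. This pattern did not follow the groups, and Ugt1a8 passed no comparison. Ugt1a10 was at 1.45, 0.511 and 3.65 CPM in HMRKO + MI livers, against 13.2, 14.9 and 9.79 CPM in LC + MI livers. Its HMRKO + sham values were 4.48, 0 and 5.92 CPM and its LC + sham values 15, 4.44 and 9 CPM. The counts assigned to it were lower in HMRKO + MI than in LC + MI livers (log2 fold change −2.79, SE 0.87, adjusted p = 0.0296 from edgeR), and DESeq2 did not pass it (adjusted p = 0.0729). Summed over the locus, UGT1A transcripts were at 397.5, 444 and 656 CPM in HMRKO + MI livers and at 364, 455 and 413 CPM in LC + MI livers. The corresponding sums were 629, 494 and 713 CPM after sham operation in HMRKO mice, and 321, 586 and 515 CPM in LC mice. This sum passed in none of the 1 day comparisons, and its log2 fold change between genotypes after MI was 0.28 (adjusted p = 0.404 from edgeR). Ugt1a1, which conjugates bilirubin, did not pass in any of them. The log2 fold changes of Ugt3a1 and Ugt3a2, whose enzymes use other sugar donors than UDP-glucuronic acid, lay between −0.53 and 0.16 after MI in either genotype and did not pass.

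GST genes fell in several classes after MI, and none rose. In HMRKO livers after MI 11 of 20 fell: 1 of 4 alpha, 5 of 7 mu, 1 of 3 pi, 2 of 3 theta, and 2 of the 3 genes Gstk1, Gsto1 and Gstz1. In LC livers 4 of 20 fell: Gsta3, Gstm3, Gsto1 and Gstp1. Gsta3, the alpha class enzyme that protects mice from aflatoxin, was at 66.9, 74.9 and 128 CPM in HMRKO + MI livers, against 542, 346 and 642 CPM in HMRKO + sham livers. It was at 215, 199.8 and 245 CPM in LC + MI livers, against 399.9, 668 and 603 CPM in LC + sham livers. The order was the same in every liver: HMRKO + MI below LC + MI, and both below all sham livers. Gsta3 fell by 2.50 on the log2 scale in HMRKO livers (SE 0.30, adjusted p = 7.43e-05 from edgeR) and fell by 1.34 in LC livers (SE 0.28, adjusted p = 0.0211 from edgeR). Between genotypes after MI the log2 fold change of Gsta3 was −1.29 (SE 0.29, adjusted p = 0.00608 from edgeR), and its interaction of −1.16 did not pass (adjusted p = 0.064 from edgeR). Gsta1, Gsta2 and Gsta4 passed in no 1 day comparison.

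Mu class genes form a cluster of 7 on chromosome 3. Gstm4 was at 9.67, 10.5 and 16.2 CPM in HMRKO + MI livers, against 43.6, 34.4 and 44.6 CPM in HMRKO + sham livers. It was at 28.9, 14.7 and 21.9 CPM in LC + MI livers, against 26.6, 33 and 35.7 CPM in LC + sham livers. Gstm4 fell by 1.75 on the log2 scale in HMRKO livers (SE 0.25, adjusted p = 0.00023 from edgeR) and did not pass in LC livers, with an interaction of −1.21 (SE 0.34, adjusted p = 0.035 from edgeR). Gstm2 was at 42.9, 33.9 and 38.4 CPM in HMRKO + MI livers, against 61.3, 84.7 and 72.1 CPM in HMRKO + sham livers. It was at 88.8, 66.3 and 79.1 CPM in LC + MI livers, against 65.3, 92.3 and 81 CPM in LC + sham livers. Gstm2 was lower in HMRKO + MI than in LC + MI livers (log2 fold change −1.02, SE 0.18, adjusted p = 0.00206 from edgeR), and its interaction was −0.89 (SE 0.25, adjusted p = 0.0306 from edgeR). Fits that left out 1 liver lost the interaction of Gstm2 and of Gstm4 in 8 of 12 cases each. Gstm3 was at 17.1, 8.16 and 12.1 CPM in LC + MI livers, against 26.6, 34.3 and 21.1 CPM in LC + sham livers. It was at 15.8, 7.19 and 13.3 CPM in HMRKO + MI livers, against 25, 21.2 and 21.9 CPM in HMRKO + sham livers. Gstm3 fell in both genotypes, with a log2 fold change of −1.14 in LC livers (SE 0.29, adjusted p = 0.0433 from edgeR) and −0.91 in HMRKO livers (SE 0.30, adjusted p = 0.0237 from edgeR). Gstm1, the most abundant mu gene, had log2 fold changes of −0.60 in HMRKO and −0.18 in LC livers after MI and passed in neither.

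Of the theta class, Gstt1 and Gstt2 fell in HMRKO livers after MI and their change differed between genotypes. Gstt1, which acts on halogenated hydrocarbons, was at 106, 98.4 and 104 CPM in HMRKO + MI livers, against 216, 229 and 280.4 CPM in HMRKO + sham livers. It was at 179, 148 and 192 CPM in LC + MI livers, against 144, 216 and 215 CPM in LC + sham livers. The HMRKO + MI values lay below those of all other livers. Gstt1 fell by 1.24 on the log2 scale in HMRKO livers (SE 0.18, adjusted p = 0.000264 from edgeR), and its interaction of −1.09 (SE 0.25, adjusted p = 0.017 from edgeR) passed in all 12 fits that left out 1 liver. Gstt2 was at 41.9, 60.8 and 71.1 CPM in HMRKO + MI livers, against 93.1, 159 and 157 CPM in HMRKO + sham livers. In LC + MI livers it was at 80.9, 64.8 and 68.1 CPM, against 61.5, 67 and 82.1 CPM in LC + sham livers. Gstt2 had an interaction of −1.25 (SE 0.32, adjusted p = 0.0251 from edgeR), and 5 of 12 fits that left out 1 liver lost it. Its HMRKO + sham livers were all above its LC + sham livers, although the test between these sham groups did not pass (log2 fold change 0.96, adjusted p = 0.334 from edgeR).

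In the pi class, Gstp1 was at 696, 635 and 730.1 CPM in HMRKO + MI livers, against 1186, 821 and 795 CPM in HMRKO + sham livers. It was at 1128, 1009 and 633 CPM in LC + MI livers, against 1785, 1557 and 1607 CPM in LC + sham livers. Gstp1 fell in LC livers after MI (log2 fold change −0.84, SE 0.22, adjusted p = 0.0468 from edgeR). All 3 HMRKO + sham livers were below all LC + sham livers, without passing the test (log2 fold change −0.82, adjusted p = 0.44 from edgeR). Gstp2 was at 0.503, 1.13 and 0.964 CPM in HMRKO + MI livers, against 4.81, 4.86 and 1.45 CPM in LC + MI livers (log2 fold change −2.05, SE 0.49, adjusted p = 0.00864 from edgeR). Its sham values were 4.14, 2.65 and 3.25 CPM in HMRKO and 5.38, 2.59 and 6.35 CPM in LC livers, and it fell after MI in HMRKO livers (log2 fold change −1.92, SE 0.49, adjusted p = 0.00709 from edgeR). Gstp3 was at 11.8, 10.5 and 10.5 CPM in HMRKO + MI livers, against 28.8, 18.6 and 21.1 CPM in LC + MI livers (log2 fold change −1.06, SE 0.23, adjusted p = 0.00575 from edgeR). Gstp2 shares 50.1% of its 75-base stretches with other genes, 44.9% with Gstp1, and is the far lower of the pair, so its values may hold divided reads. Gsto1, Gstk1 and Gstz1 had log2 fold changes between −0.87 and −0.13 in HMRKO livers after MI, where Gstk1 and Gstz1 fell, and between −0.70 and −0.21 in LC livers, where Gsto1 fell.

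Promoters of 4 genes described above as falling, chosen after the matches were seen, are shown as examples of a searched motif. Gstm6, Gstm7, Gstp1, Sult1c2 and Ugt2b36, which also fell in 1 genotype or in both, held matches too and are not shown. Gsta3 (chr1:21240335-21240634, plus strand, GRCm38.p6) held TGACNNNGC 121 bases before its start. Ugt2b1 (chr5:86926454-86926753, minus strand) held TTATGNAA 59 bases before its start, and Gstt1 (chr10:75797682-75797981, minus strand) held it 39 bases before. Ugt2b34 (chr5:86906888-86907187, minus strand) held AGAACA 209 bases before its start. Capitals mark these matches.
Gsta3: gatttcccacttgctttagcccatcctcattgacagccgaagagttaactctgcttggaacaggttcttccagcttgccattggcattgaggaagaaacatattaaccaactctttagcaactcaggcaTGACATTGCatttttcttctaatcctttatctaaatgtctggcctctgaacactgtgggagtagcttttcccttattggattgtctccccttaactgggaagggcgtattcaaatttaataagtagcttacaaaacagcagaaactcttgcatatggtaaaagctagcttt
Ugt2b1: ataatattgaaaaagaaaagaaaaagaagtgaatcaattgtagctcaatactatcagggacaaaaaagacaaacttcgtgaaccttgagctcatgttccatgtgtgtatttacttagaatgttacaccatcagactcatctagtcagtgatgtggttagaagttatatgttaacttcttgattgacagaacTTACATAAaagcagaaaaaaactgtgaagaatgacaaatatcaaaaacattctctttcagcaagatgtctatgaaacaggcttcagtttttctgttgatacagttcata
Gstt1: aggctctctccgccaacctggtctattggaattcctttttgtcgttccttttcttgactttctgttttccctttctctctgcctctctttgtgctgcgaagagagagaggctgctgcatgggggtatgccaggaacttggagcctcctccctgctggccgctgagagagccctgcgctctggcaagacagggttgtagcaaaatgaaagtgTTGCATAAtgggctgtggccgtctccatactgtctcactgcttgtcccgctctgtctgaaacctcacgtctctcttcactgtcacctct
Ugt2b34: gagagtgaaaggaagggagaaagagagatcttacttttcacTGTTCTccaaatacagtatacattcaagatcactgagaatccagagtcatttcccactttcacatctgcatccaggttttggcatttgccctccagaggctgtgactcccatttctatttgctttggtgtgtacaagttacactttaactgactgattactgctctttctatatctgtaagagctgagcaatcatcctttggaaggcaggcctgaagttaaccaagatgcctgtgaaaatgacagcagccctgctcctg
RefSeq promoter windows were matched for 56 of the 64 genes, with 67 starts. TGACNNNGC was in 4.48% of these and 12.4% of all windows, TTATGNAA in 5.97% and 3.38%, GCGTG in 19.4% and 32.4%, AGAACA in 23.9% and 19%, and CACGTG in 0% and 7.15%. These matches describe letters in the reference sequence, and the deposited files hold no measurement of factor binding.

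At 12 hours after MI in wild type mice, 24 of 40 genes rose and 5 fell, where 34.3% of all 12548 genes tested were higher and 32% lower (edgeR, adjusted p under 0.05). The median log2 fold change was 0.92 over the 40 genes and 0.11 over all genes. These numbers depended on the scaling of libraries, as the plot of 12 hour values shows. Scaled by library totals alone, 12 genes rose and 7 fell, where 2116 of all 12548 genes were higher and 5620 lower. By limma on TPM 14 rose and 9 fell, where 2268 of all 12548 genes were higher and 5419 lower. The median over all genes was then −0.54 and −0.37, and the 40 genes stood above it by 0.81 with TMM, 0.81 with totals and 0.66 with TPM. A core of 12 higher genes (Gsta2, Gsta4, Gstm1, Gstm2, Gstm3, Gstm6, Gstm7, Gstt3, Sult1e1, Ugt2b1, Ugt3a1 and Ugt3a2) and 5 lower genes (Gstp2, Gstt2, Sult2a8, Sult5a1 and Ugt2b34) passed under all 3 scalings. Of these, Gstt2 overlapped between groups by CPM. With TMM, 2 of 6 fits that left out 1 liver lost the call of Gstt2, and 5 of 6 that of Ugt2b34. Hepatocyte marker sums moved the same way, at 71602 to 99369 CPM in MI livers and 30519 to 34256 CPM in sham livers, with 5 of 8 markers higher and 0 lower. Stellate cell marker sums were at 116 to 168 CPM in MI livers and 235 to 381 CPM in sham livers. Of 7 tested neutrophil markers 5 were higher and 1 lower after MI, while their sum, in which the lower one, Cxcr2, weighed most in sham livers, was at 33.2 to 77.2 CPM in MI livers and 93.9 to 115 CPM in sham livers. Of 12 clock and D-box binding factor genes 7 were higher and 4 lower. The part of these in the result was not tested. With MI libraries thinned to the depth of the sham libraries, 20 of 38 genes rose and 5 fell. Of all 9996 genes tested in that fit, 3123 were higher and 3325 lower. On the TMM scale, MI and sham values did not overlap for 71.8% of all genes tested.

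Sult1e1 was at 22.2, 59.4 and 25.3 CPM in MI livers, and 0 counts were found in all 3 sham livers. Taking 3 counts over the sham group as the limit, this is at least 53.8-fold higher on the scale of library totals (adjusted p = 6.03e-05 from edgeR). Gstm6, of the mu class, was at 93.6, 89.7 and 98.4 CPM in MI livers, against 19.4, 15.4 and 15.2 CPM in sham livers (log2 fold change 2.50, SE 0.20, adjusted p = 5.58e-06 from edgeR). Gstm1 was at 2416, 1514 and 1942 CPM in MI livers, against 837, 564 and 696 CPM in sham livers (log2 fold change 1.48, SE 0.28, adjusted p = 0.000815 from edgeR). Mu class transcripts thus rose broadly, 6 of 7 by TMM scaling, and their sum was 2043 ± 425 TPM in MI livers and 1113 ± 160 TPM in sham livers (SD, n = 3 each). In the alpha class, Gsta2 was at 62.1, 12.8 and 19.5 CPM in MI livers, against 3.52, 1.58 and 6.93 CPM in sham livers (log2 fold change 2.92, SE 0.67, adjusted p = 0.00307 from edgeR). Gsta1 was at 12.8, 3.79 and 3.74 CPM in MI livers, against 3.52, 0 and 0 CPM in sham livers, and shares 84.7% of its 75-base stretches with other genes. Gsta4, which conjugates products of lipid peroxidation, was at 48.7, 27.7 and 28.1 CPM in MI livers, against 13.5, 4.34 and 11.1 CPM in sham livers (log2 fold change 1.88, SE 0.38, adjusted p = 0.00127 from edgeR). These 3 alpha class genes did not overlap between groups, and neither did 71.8% of all genes tested. Gsta3 had a log2 fold change of −0.02 (adjusted p = 0.953 from edgeR). Gstt3 was at 65.7, 16.7 and 55.3 CPM in MI livers, against 5.87, 2.76 and 10.1 CPM in sham livers (log2 fold change 2.85, SE 0.55, adjusted p = 0.00107 from edgeR).

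Of the UGT genes at 12 hours, Ugt3a1 was at 62.4, 71.6 and 55.4 CPM in MI livers, against 7.63, 7.1 and 17.7 CPM in sham livers (log2 fold change 2.50, SE 0.31, adjusted p = 6.33e-05 from edgeR). Its neighbour Ugt3a2 was at 101, 111 and 149 CPM in MI livers, against 22.3, 39.1 and 19.4 CPM in sham livers (log2 fold change 2.15, SE 0.29, adjusted p = 9.16e-05 from edgeR). Both UGT3 genes were higher in every MI liver. Ugt2b1 was at 218, 198 and 274 CPM in MI livers, against 39.9, 105 and 53 CPM in sham livers (log2 fold change 1.79, SE 0.33, adjusted p = 0.000802 from edgeR). Ugt2b34 was at 72.7, 55.6 and 107 CPM in MI livers, against 119, 129 and 137 CPM in sham livers (log2 fold change −0.71, SE 0.25, adjusted p = 0.0267 from edgeR), a call that 5 of 6 fits without 1 liver lost. These UGT2 neighbours moved in opposite directions without overlap. Ugt1a9, which conjugates phenols and whose single values are likewise uncertain, was at 3.79, 19.8 and 26.3 CPM in MI livers, against 2.35, 6.71 and 3.12 CPM in sham livers, and lost its call (adjusted p = 0.0243 from edgeR) under scaling by totals or TPM. The UGT1A sum had a log2 fold change of 1.28 (adjusted p = 0.00101 from edgeR), with 529 ± 118 CPM in MI livers and 218 ± 31.6 CPM in sham livers (SD, n = 3 each). With library totals the sum had a log2 fold change of 0.62 (adjusted p = 0.044 from edgeR), and by limma on TPM 0.58 (adjusted p = 0.0313), with 221 ± 38.4 TPM in MI livers and 146 ± 20.02 TPM in sham livers (SD, n = 3 each). No single UGT1A gene passed with totals or TPM.

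**Figure D5:**
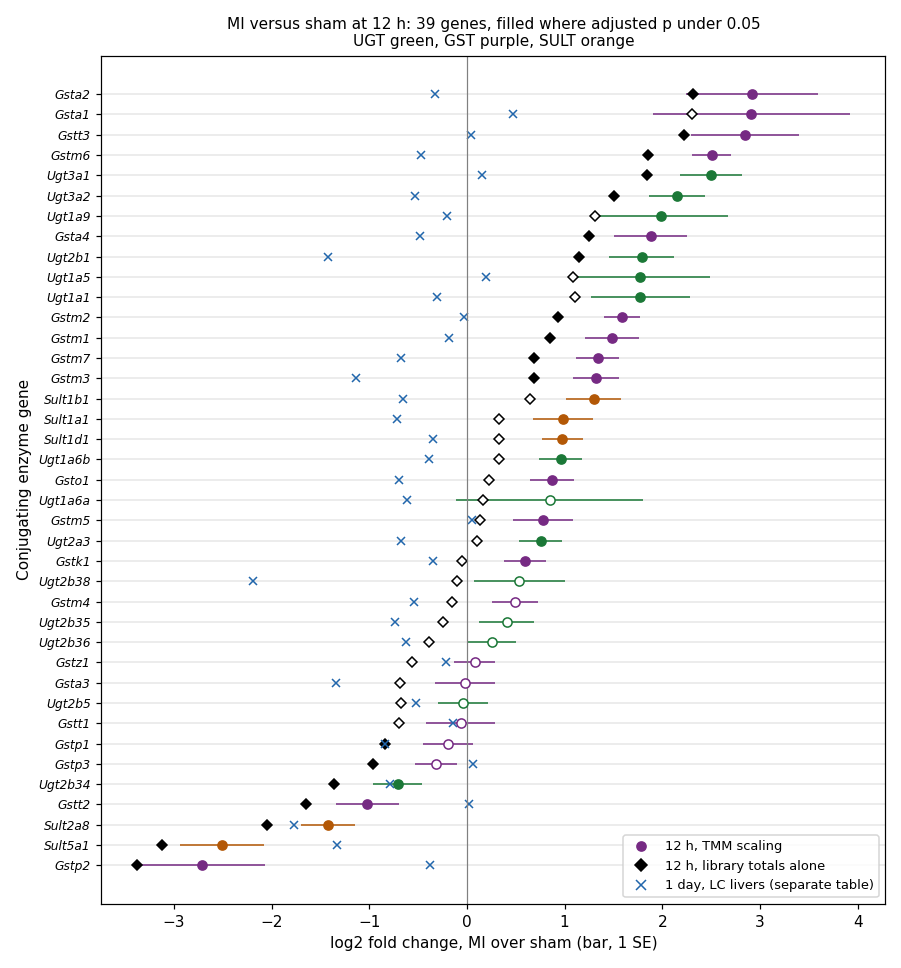
Log2 fold changes of MI over sham (horizontal axis) for 39 of the 40 genes tested at 12 hours, with TMM scaling (circles, bars of 1 SE), with library totals alone (diamonds) and, from the separate 1 day table, in LC livers (crosses), filled circles and diamonds for an adjusted p under 0.05 from edgeR. Diamonds lie left of circles throughout, fewer diamonds than circles are filled right of 0, and Sult1e1, at 0 counts in sham livers, is left out.

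Among the genes that fell at 12 hours, Gstp2 was at 4.84, 7.59 and 1.97 CPM in MI livers, against 65.1, 7.89 and 24.6 CPM in sham livers (log2 fold change −2.72, SE 0.65, adjusted p = 0.00369 from edgeR). The sum of Gstp1 and Gstp2 did not pass (log2 fold change −0.22, adjusted p = 0.475 from edgeR), but it was lower with library totals (log2 fold change −0.86, adjusted p = 0.019 from edgeR). Sult5a1 was at 11.6, 4.34 and 4.63 CPM in MI livers, against 29.3, 60.0 and 27 CPM in sham livers (log2 fold change −2.51, SE 0.43, adjusted p = 0.000479 from edgeR). Sult2a8 was at 160.0, 75.4 and 107 CPM in MI livers, against 268, 322 and 325 CPM in sham livers (log2 fold change −1.42, SE 0.28, adjusted p = 0.00117 from edgeR). Sult1d1 was at 121, 108 and 116 CPM in MI livers, against 72.2, 57.2 and 46.4 CPM in sham livers (log2 fold change 0.98, SE 0.21, adjusted p = 0.00203 from edgeR). Sult1b1 was at 11.8, 14.6 and 18.4 CPM in MI livers, against 6.46, 5.13 and 6.59 CPM in sham livers (log2 fold change 1.30, SE 0.28, adjusted p = 0.00207 from edgeR). All 3 SULT1 neighbours were thus higher in every MI liver at 12 hours by TMM scaling, but with library totals Sult1d1 (log2 fold change 0.33, adjusted p = 0.216 from edgeR) and Sult1b1 (0.64, adjusted p = 0.0651 from edgeR) did not pass. The pair Sult1e1 and Sult2a8 thus moved in opposite directions at 12 hours and in both genotypes at 1 day. Gene length also moved with the 12 hour result. Over all genes the median log2 fold change was 0.37 in the shortest sixth of transcripts and −0.45 in the longest. Of the 40 genes, 34 were shorter than the median gene. Length and log2 fold change had a Spearman correlation of −0.15 over all genes and of 0.13 over the 40. With an offset for length, 22 of the 40 rose and 6 fell, where 4594 of all 12539 genes were higher and 3780 lower.

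Of the 40 genes tested at both times, 4 fell in LC livers at 1 day and rose in wild type livers at 12 hours, without overlap in either: Gstm3, Gsto1, Ugt2a3 and Ugt2b1. Of 11538 genes tested at both times, 0.529% did so. Among genes that fell in LC livers at 1 day, these were 4 of 8 conjugating enzyme genes and 61 of 301 genes in all (20.3%). Gsto1 was at 28.9, 29.3 and 24.8 CPM in LC + MI livers, against 44.5, 49.6 and 40.4 CPM in LC + sham livers. At 12 hours it was at 70.2, 51 and 49.9 CPM in MI livers, against 28.8, 25.6 and 38.5 CPM in sham livers. Ugt2a3 was at 69.8, 79.2 and 71.3 CPM in LC + MI livers, against 96.8, 121 and 134 CPM in LC + sham livers, and at 12 hours at 85.6, 82.6 and 126 CPM in MI livers, against 63.4, 60.4 and 50.6 CPM in sham livers. By scaling to library totals, Gsto1 and Ugt2a3 no longer passed at 12 hours (log2 fold changes 0.23 and 0.10), whereas Gstm3 and Ugt2b1 did (0.69 and 1.15). The 2 times come from separate tables, and the difference between them was not tested.

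Genes that supply the conjugation donors moved in both directions at 1 day. Of 9 tested genes of sulfate activation, 3 were higher and 3 lower in HMRKO livers after MI, and 1 was lower in LC livers. Of all genes tested, 22% were higher and 21.7% lower in HMRKO livers, and 2.68% higher and 2.33% lower in LC livers. Papss2, which makes the sulfate donor PAPS, averaged 37.7 ± 4.37 CPM in HMRKO + MI livers, against 169 ± 40.7 CPM in HMRKO + sham livers (SD, n = 3 each), a log2 fold change of −2.17 (adjusted p = 2.23e-05 from edgeR). In LC livers after MI it fell by 1.30 on the log2 scale (adjusted p = 0.00593 from edgeR), with 40.8 ± 9.46 CPM in LC + MI livers and 100.4 ± 12.1 CPM in LC + sham livers (SD, n = 3 each). Of 6 genes of UDP-glucuronic acid supply, 1 was higher and 1 lower in HMRKO livers after MI. The lower one was Ugdh, the dehydrogenase that makes the donor (log2 fold change −0.77, adjusted p = 0.0396 from edgeR). Of 12 tested genes of glutathione synthesis and recycling, 2 were higher and 5 lower in HMRKO livers after MI. Chac1, which breaks glutathione down, was among the higher ones (log2 fold change 2.16, adjusted p = 0.000929 from edgeR), and Gclc, the catalytic subunit of the rate-limiting enzyme of glutathione synthesis, was lower in HMRKO + MI than in LC + MI livers (log2 fold change −0.86, adjusted p = 0.0365 from edgeR). Of 16 other conjugating and membrane enzymes, 4 were higher and 5 lower in HMRKO livers after MI, near the shares over all genes in this comparison (22% higher and 21.7% lower). Baat, which conjugates bile acids to amino acids, had a log2 fold change of 1.16 and Inmt, a methyltransferase, of −3.46. At 12 hours 6 of 9 sulfate genes, 4 of 6 UDP-glucuronic acid genes and 7 of 12 glutathione genes were higher, and 3, 0 and 0 were lower. Of all 12548 genes tested then, 34.3% were higher and 32% lower by TMM scaling. With library totals alone, 2116 genes were higher and 5620 lower, so such counts depend on scaling.

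Known regulators of xenobiotic genes moved in both directions. Among 16 tested, 7 were higher and 2 lower in HMRKO + MI than in LC + MI livers, where 14.6% of all genes were higher and 16.2% lower. In HMRKO livers after MI 3 were higher and 3 lower, where 22% of all genes were higher and 21.7% lower. Ppara, which encodes the fatty acid receptor PPARα, was among those higher in HMRKO + MI than in LC + MI livers, by 1.14 on the log2 scale (adjusted p = 0.0058 from edgeR). Nr1i3, which encodes the xenobiotic receptor CAR, was 1 of the 2 that were lower. It averaged 299 CPM in HMRKO + MI livers, against 484 CPM in HMRKO + sham livers, and 688 CPM in LC + MI livers, against 371 CPM in LC + sham livers, with an interaction of −1.58 (adjusted p = 0.00787 from edgeR). Nfe2l2, which encodes NRF2, the activator that binds antioxidant response elements, fell by 1.22 on the log2 scale in HMRKO livers after MI (adjusted p = 8.15e-05 from edgeR). Its log2 fold change of −0.12 in HMRKO + MI over LC + MI livers did not pass. Clock genes moved with the operation. Of 12 core clock and D-box binding factor genes, 2 were higher and 7 lower in HMRKO livers after MI, and 2 were higher and 6 lower in LC livers. Over all genes tested, 22% were higher and 21.7% lower in HMRKO livers after MI, and 2.68% higher and 2.33% lower in LC livers. Dbp, a D-box binding factor whose level cycles over the day, averaged 8.68 CPM in HMRKO livers with MI, against 296 CPM with sham operation, and 9.49 CPM in LC livers with MI, against 195 CPM with sham operation. The part of the clock in the results was not tested. Neutrophil marker sums ranged over 24.4 to 27.4 CPM in HMRKO livers with MI, against 4.31 to 6.89 CPM with sham operation, and 6.61 to 14.5 CPM in LC livers with MI, against 1.9 to 7.42 CPM with sham operation. Of 5 tested neutrophil markers 5 rose in HMRKO livers after MI, 4 were higher in HMRKO + MI than in LC + MI livers, and 0 passed in LC livers. Hepatocyte marker sums ranged over 62618 to 69471 CPM in HMRKO livers with MI, against 48271 to 63677 CPM with sham operation, and 60251 to 66844 CPM in LC livers with MI, against 64998 to 72894 CPM with sham operation. Of the 8 hepatocyte markers, 1 was higher and 1 lower in HMRKO livers after MI, and 0 were higher and 2 lower in LC livers. Fabp1, the liver fatty acid binding protein, fell in both genotypes, by 2.52 on the log2 scale in HMRKO livers. The part of these cells in the results was not tested.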

How the data were processed

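RNA of 18 mouse livers was analysed from 2 deposited tables. The 1 day table holds whole-number counts per gene as deposited by the authors for 12 livers. The 12 hour table holds estimated counts, TPM and FPKM that the authors computed per gene for 6 livers, with group means that were not used. FPKM values deposited by the authors were not used. The build mm9 and the tools HISAT2 2.1.0, TopHat2, Bowtie2 2.2.3 and DESeq2 stand in the submitters' processing notes without a role. Which program counted reads, with which annotation and strand setting, is not given in the sources used here. Reads of near-identical genes may thus have been divided or dropped. Libraries held 19098704 to 28945526 counts at 1 day and 1361564 to 19190438 at 12 hours, which sets the precision of low genes.

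Of the estimated counts, 28.2% were not whole and were rounded. Genes were kept by filterByExpr (minimum count 10, minimum total 15), scaled by TMM and fitted with edgeR 4.0.16 (R 4.3.3) by the quasi-likelihood test, over all genes and all groups of a table. P-values were adjusted by Benjamini and Hochberg over all genes tested, with a threshold of 0.05. Groups came from the sample labels and the design text of the series, and the genes and lists were chosen with earlier results of these data known. Values in every liver were given for genes past the threshold with an absolute log2 fold change over 1 (at most the 12 largest per comparison), for those with an interaction, and for the most abundant gene of each family. Gsto1, Ugt2a3, Ppara, Fabp1 and Cxcr2 were added after their values were seen. Alternatives were other scalings, filters and fits (DESeq2 1.42.0, and limma 3.58.1 on log2(TPM + 1)), a replicate block and each liver left out. Thinning, a length offset and summed shared genes were added after seeing the data. Promoters came from RefSeq (GRCm38.p6). Shared sequence was counted over 75-base stretches of GENCODE vM21 transcripts. The edgeR fit was checked on simulated counts, for 1 comparison at each time.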

Additional observations from a re-analysis of the deposited data

Results flagged for a closer look

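The change after MI differed between genotypes, by a test of the difference itself, for 7 of the 46 genes tested. Of the 46, 10.9% had a negative and 4.35% a positive term, against 8.5% and 6.74% of all genes. The number passing was thus near the share over all genes. The interaction was 1.44 for Sult1d1, 1.38 for Sult1b1, −1.44 for Ugt2b34, −1.25 for Gstt2, −1.21 for Gstm4, −1.09 for Gstt1 and −0.89 for Gstm2, all on the log2 scale with 3 livers a group. The smallest adjusted p was 0.00752 for Sult1d1 and the largest 0.035 for Gstm4, both from edgeR. Sult1d1, Ugt2b34 and Gstt1 kept the call in all 12 fits that left out 1 liver.

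For 4 genes that passed at both times, every MI liver was higher than every sham liver at 12 hours while every LC + MI liver was lower than every LC + sham liver at 1 day. Of 11538 genes tested at both times, 0.529% did so. Their log2 fold changes at 12 hours were 1.79 for Ugt2b1, 1.32 for Gstm3, 0.87 for Gsto1 and 0.75 for Ugt2a3. At 1 day in LC livers they were −1.42 for Ugt2b1, −1.14 for Gstm3, −0.70 for Gsto1 and −0.67 for Ugt2a3. With library totals, Gsto1 and Ugt2a3 did not pass at 12 hours (log2 fold changes 0.23 and 0.10). Of 12 fits that left out 1 liver, 8 lost the fall of Gstm3 in LC livers, 4 that of Ugt2b1, 4 that of Ugt2a3 and 3 that of Gsto1. The difference between the times was not tested.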

How the results depend on the processing

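Of 83 gene results, 42 kept direction and call in every alternative, and of 1607 alternatives 1397 kept the call, 207 lost it and 3 turned its direction. Those 3 were for Gstk1 at 12 hours, with a log2 fold change of −0.0498 under library totals, −0.00409 under TPM with a pseudocount of 1 and −0.00396 with 0.1, against 0.59 with TMM. With no filter beyond 1 count, 17 genes passed in LC livers, 13 for the interaction and 2 between sham groups. DESeq2 passed 11 for the interaction and 1 between sham groups. The LC livers by themselves passed 5, the rule of an absolute log2 fold change over 1 left 16 in HMRKO livers after MI, and library totals left 19 at 12 hours, where the higher share of calls was 82.8% with TMM, 63.2% with totals and 60.9% with TPM. Leaving out 1 liver gave 1 to 12 genes in LC livers, 8 to 14 between genotypes after MI, 19 to 27 in HMRKO livers after MI, 4 to 9 for the interaction, 0 between sham groups and 22 to 26 at 12 hours. Except where a change of samples or genes tested shows it, the cause was not tested. Replicate numbers recur in all groups, and no source used here says whether same-numbered livers share a litter or operating day. Correlations of their deviations from group means ran from −0.17 to 0.25. With 3 values per comparison, these cannot decide whether the livers were paired, and the main fit did not pair them. With a replicate block 9 genes passed in LC livers, 13 between genotypes after MI, 26 in HMRKO livers after MI, 10 for the interaction and 28 at 12 hours. At 1 day, scaling by library totals moved the median of all genes by −0.10 in LC and −0.13 in HMRKO livers after MI. Genes under a few CPM, such as Sult1c2 and Gstp2, and all low genes of the shallow 12 hour sham libraries are limited by depth.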
